A study of Mus musculus with 12 samples.

Results

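The 34 genes described here encode enzymes that work inside lysosomes, cofactors of those enzymes, proteins of the lysosomal membrane and 1 transcription factor, Tfeb. They were taken by name, and all probe sets that the platform tables pair with 1 of these genes alone were used. These are 79 of 45265 probe sets, 60 on the Affymetrix chip MOE430A and 19 on its partner MOE430B, and 34 of the 18194 genes with such a probe set. Lysosomes are acidic organelles that break down proteins, sugars and lipids delivered by endocytosis and autophagy. Most of their soluble enzymes are made in the endoplasmic reticulum, tagged with mannose 6-phosphate in the Golgi and carried to the lysosome by receptors, and some are also secreted and act on the extracellular matrix. TFEB and its relatives switch many of these genes on together by binding a short promoter element called CLEAR, and in the mammary gland lysosomal proteases are known for their part in remodelling and involution.

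Mouse mammospheres, floating spheres grown from mammary gland cells, were compared with cells derived from them by differentiation. The undifferentiated spheres were at passage 3, in DMEM and F12 medium with B-27, heparin, EGF and basic FGF, and the submitters put their purity at 90% with 10% myoepithelial cells. The differentiated state was reached in 6 days on collagen-coated dishes, where the medium was DMEM high in glucose and held 5% fetal bovine serum, and the submitters judged these cells 50% luminal and 50% myoepithelial. Each state has 3 RNA samples, numbered 1, 2 and 4, every sample was run on both chips (12 arrays in all), and the question is how gene expression differs between the states. The labels give no strain, age or genotype, and separate cultures or animals are not stated for samples 1, 2 and 4, so the p-values measure the spread between these samples, which may be technical. Medium, serum, attachment and the fluidics station of the arrays change together with the state and cannot be told apart from it.

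Values are MAS5 signals, a linear measure of probe set brightness, and every array had a trimmed mean of about 1500 (1500.5 on MOE430A, 1500.2 on MOE430B). The highest signal of the trpn control probe sets, which match a bacterial sequence, served as the background of an array, and it lay between 515.5 and 829.8 on MOE430A and between 1674 and 2995 on MOE430B. Hybridisation controls read 2.88-fold, 1.44-fold and 2.85-fold the undifferentiated mean on the MOE430A arrays of differentiated samples 1, 2 and 4. Poly-A controls read 1.04-fold, 0.82-fold and 1.14-fold their undifferentiated mean on the same arrays. Of 8 myoepithelial markers measured, 7 of them on MOE430A, 4 rose and 0 fell. Of all genes of that chip 14.2% rose and 13.9% fell. Acta2 was among the rises (adjusted p = 2.9e-05), but Krt14, a keratin that defines basal mammary epithelium, lay below the background on all 6 arrays. Krt8, a luminal keratin, was above it on all 6, and its partner Krt18 on 2 undifferentiated arrays only. The mammary epithelial label thus rests here on few defining markers. The samples are bulk RNA, in which fewer cells of a type and less RNA per cell cannot be told apart.

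The lysosomal genes did not move as a block. Of the 33 genes measured on MOE430A, 11 passed (33.3%, against 28.1% of all 9484 genes of that chip): 6 rose and 5 fell in the differentiated samples by limma's moderated test at an adjusted p of 0.05, or 18.2% and 15.2%. Of all genes there 14.2% rose and 13.9% fell, so both shares lie near the background. The median change of the 33 genes was -0.04 on the log2 scale and that of all genes 0.05, and their median absolute changes were 0.36 and 0.34. Cathepsin K (Ctsk), cathepsin B (Ctsb) and the glycosidases Gla, Glb1 and Gusb fell. The glycosidases Idua and Gaa, the protease Ctsf, the sulfatase Arsa, the sphingomyelinase Smpd1 and the activator protein Gm2a rose. Among the 33, 5 passed with at least 2-fold (15.2%, against 10.0% of all genes): Ctsk and Gla down, Gm2a, Idua and Gaa up. In 20 of the 33 (60.6%) the ranges of the states did not overlap, which 47.5% of all genes of the chip show. The remaining gene, Arsb, was measured on MOE430B alone and did not pass. On that chip 2.00% of the 5493 genes measured there alone passed, 0.692% as rises and 1.31% as falls.

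**Figure D1:**
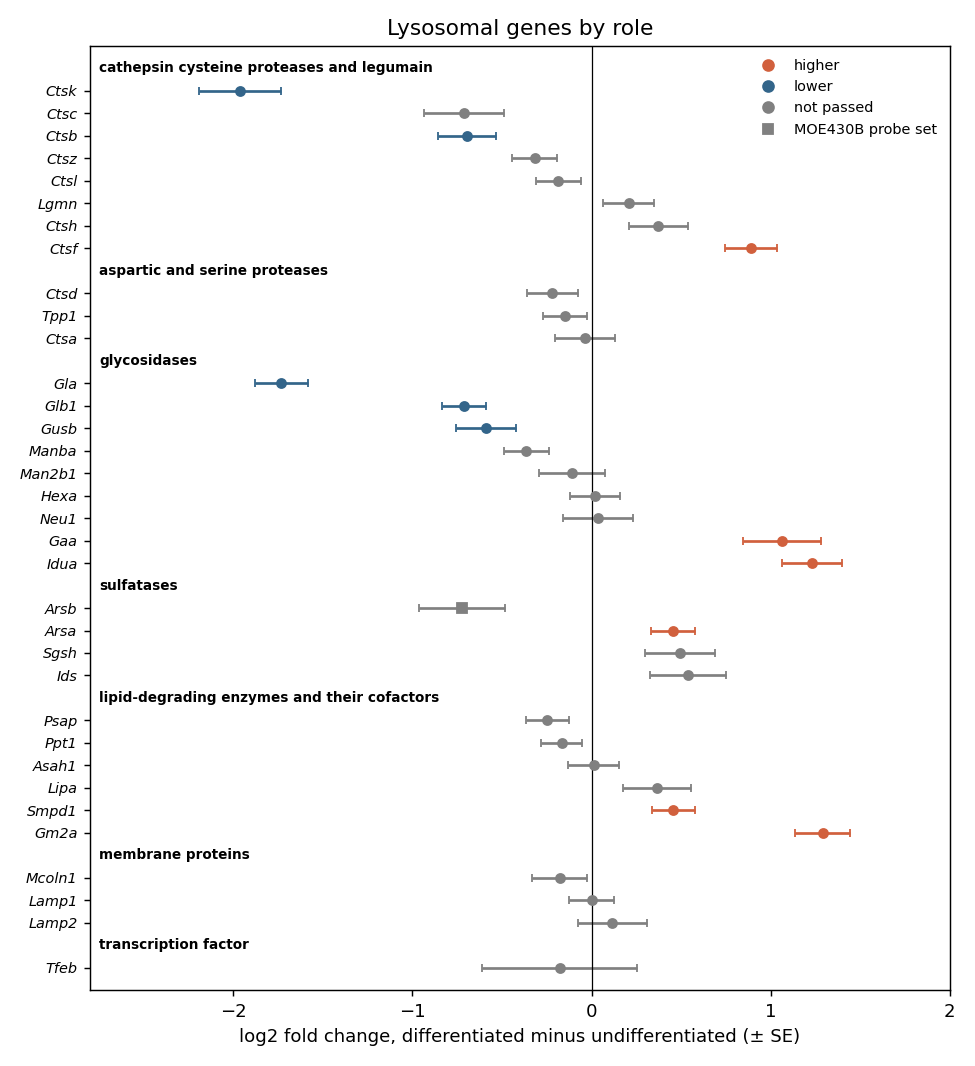
Log2 fold change (differentiated minus undifferentiated, horizontal axis) of each of the 34 genes on its brightest probe set, grouped by role, with bars for limma's SE. Rises (orange) and falls (blue) stand side by side among the cysteine proteases and the glycosidases, and Lamp1 sits at 0.00. Scaling on the hybridisation controls turned the values of Arsa, Ctsf, Gaa and Smpd1 among the rises.

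Both the rises and the falls depend on the scaling of the arrays. With the hybridisation controls as the base of the scaling, the median of all MOE430A probe sets became -1.06. There 0 of the 33 genes rose and 23 fell, beside 247 rises and 10649 falls among all 15939 tested probe sets of the chip. Measured against that median, 11 of the 33 genes stood above it, with Gm2a at 1.20 and Ctsk at -2.08 relative to it. Scaling on the poly-A controls gave 4 rises and 2 falls and quantile normalization 6 and 8. Of all tested probe sets of the chip 1232 rose and 1306 fell with the former, and 2018 and 2364 with the latter. Ctsk and Gla passed as falls under all 20 alternatives in which a gene's fold change was fitted again, and Idua and Gm2a as rises under 19, all but the scaling on hybridisation controls. Without undifferentiated sample 2, without undifferentiated sample 4 or without differentiated sample 4 the falls numbered 3. Without differentiated samples 1 and 4, the ones with the highest hybridisation controls, Idua and Gm2a alone rose and Ctsk, Gla and Ctsb alone fell among the 33. The lone differentiated sample was then assumed to vary like the others.

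**Figure D2:**
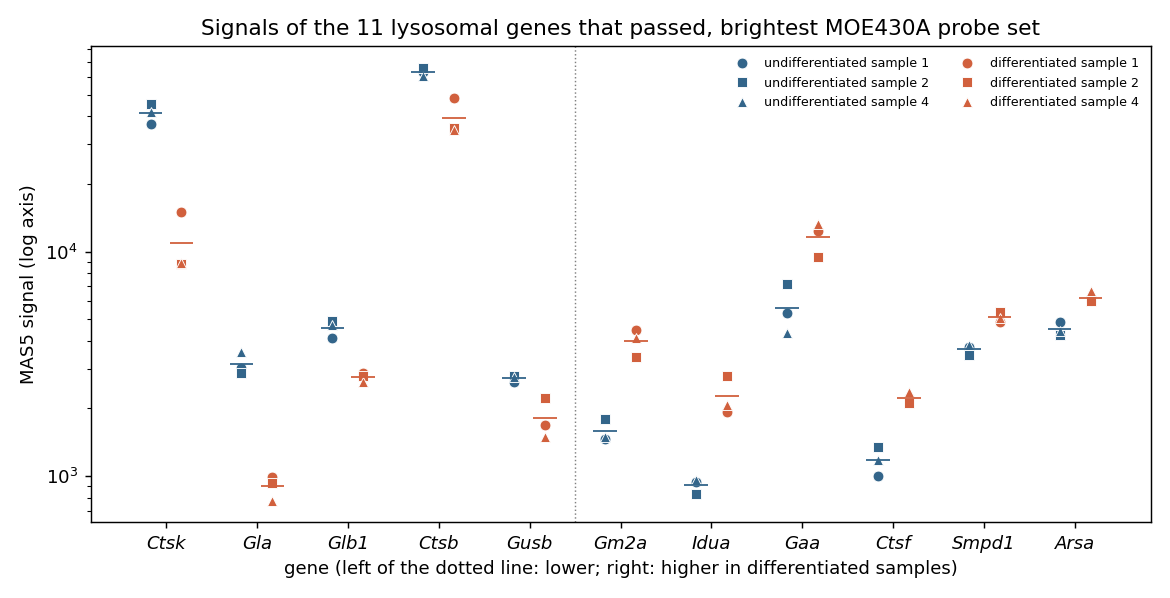
MAS5 signals (log axis) of the 11 genes that passed, each on its brightest MOE430A probe set, with 3 undifferentiated (blue) and 3 differentiated (orange) samples and a line at each mean. The states do not overlap in any of the 11 genes, and the widest gap is that of Gla, with 2878 as the lowest undifferentiated and 987.4 as the highest differentiated value. The signals are scaled to a common trimmed mean, and the directions of Arsa, Ctsf, Gaa and Smpd1 turn with scaling on the hybridisation controls.

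Promoters of the 34 genes were searched for the core of the CLEAR element, as a description of what the genes share in sequence. RefSeq's table (build GRCm38.p6), with 250 bases before and 50 after each start, holds 31 of the 34. The motif GTCACGTG occurs on either strand in 9 of the 31 (29.0%), against 2.55% of all 27025 genes of the table. TCACGTGA, which overlaps it, occurs in 4 (12.9%, against 1.12%), and CACGTG, which lies inside both, in 12 (38.7%, against 8.09%). The genes with GTCACGTG are Lgmn, Ctsd, Ctsa, Gla, Glb1, Sgsh, Arsa, Lamp1 and Mcoln1. Of the 4 genes with a promoter here that fell, 2 hold it. Of the 6 that rose 1 does, and of the 21 that did not pass 6 do. The difference between these shares was not tested. Among the carriers Gla and Glb1 fell and Arsa rose under the scaling used here. With scaling on the hybridisation controls all 9 read below 0, Arsa at -0.71 and Sgsh at -0.61. So did all of the 34 genes but Gm2a and Idua, and the median of all MOE430A probe sets was -1.06 there. Relative to that median Arsa stood at 0.35, Sgsh at 0.45 and Lgmn at 0.09, and the other carriers stood below it. The following promoters are those of 2 genes that fell (Gla at chrX:134600956-134601255, minus strand, and Glb1 at chr9:114400828-114401127, plus strand), of Arsa, which rose (chr15:89477375-89477674, minus strand), and of Sgsh, which rose on its dimmer probe set only (chr11:119355461-119355760, minus strand). The largest fall and the largest rise, whose promoters lack these letters, are shown for contrast (Ctsk at chr3:95498960-95499259, plus strand, and Gm2a at chr11:55097735-55098034, plus strand). Each runs 5′ to 3′ in the direction of the gene, and capitals mark GTCACGTG, TCACGTGA or CACGTG on either strand. A match is not a binding site, and no binding was measured.
Gla: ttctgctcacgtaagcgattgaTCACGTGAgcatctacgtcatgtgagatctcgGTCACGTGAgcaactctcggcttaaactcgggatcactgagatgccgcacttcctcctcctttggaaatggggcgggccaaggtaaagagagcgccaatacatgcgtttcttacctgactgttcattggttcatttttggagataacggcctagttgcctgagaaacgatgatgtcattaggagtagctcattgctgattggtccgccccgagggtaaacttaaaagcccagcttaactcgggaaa
Glb1: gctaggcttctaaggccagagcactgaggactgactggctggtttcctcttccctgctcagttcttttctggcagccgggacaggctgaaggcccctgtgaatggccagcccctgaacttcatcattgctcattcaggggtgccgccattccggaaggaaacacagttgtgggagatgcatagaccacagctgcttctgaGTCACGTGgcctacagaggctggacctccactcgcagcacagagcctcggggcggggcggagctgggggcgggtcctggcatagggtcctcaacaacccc
Arsa: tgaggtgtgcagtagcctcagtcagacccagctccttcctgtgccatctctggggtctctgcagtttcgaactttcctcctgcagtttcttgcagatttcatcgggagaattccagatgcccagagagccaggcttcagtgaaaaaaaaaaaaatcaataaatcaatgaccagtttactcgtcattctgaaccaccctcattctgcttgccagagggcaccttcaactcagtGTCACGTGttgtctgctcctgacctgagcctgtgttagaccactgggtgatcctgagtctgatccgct
Sgsh: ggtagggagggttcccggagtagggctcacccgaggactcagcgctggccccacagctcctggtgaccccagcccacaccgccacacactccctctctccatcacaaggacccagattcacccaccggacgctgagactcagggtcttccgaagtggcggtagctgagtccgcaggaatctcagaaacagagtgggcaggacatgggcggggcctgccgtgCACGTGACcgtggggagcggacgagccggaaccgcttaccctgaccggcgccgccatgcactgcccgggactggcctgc
Ctsk: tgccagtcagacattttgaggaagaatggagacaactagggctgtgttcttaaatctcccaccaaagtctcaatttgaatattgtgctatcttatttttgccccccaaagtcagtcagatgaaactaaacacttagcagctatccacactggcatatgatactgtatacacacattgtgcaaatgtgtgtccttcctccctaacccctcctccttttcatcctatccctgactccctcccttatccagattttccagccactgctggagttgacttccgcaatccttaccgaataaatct
Gm2a: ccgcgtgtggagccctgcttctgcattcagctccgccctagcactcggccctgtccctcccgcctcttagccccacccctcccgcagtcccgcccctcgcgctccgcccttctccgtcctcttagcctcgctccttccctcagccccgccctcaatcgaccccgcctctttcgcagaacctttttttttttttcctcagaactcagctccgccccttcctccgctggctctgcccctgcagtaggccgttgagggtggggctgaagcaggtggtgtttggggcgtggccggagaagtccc

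In the Gla promoter GTCACGTG begins 196 bases before the start, and a second CACGTG core lies 227 bases before it. In the other 3 the match is nearer, at 50 bases for Glb1, 29 for Sgsh and 18 for Arsa. Lamp1, which did not pass, holds 4 CACGTG cores within 61 bases before its start, and Mcoln1, Ctsd and Ctsa hold 2 each. The promoter windows of Ctsf, Gaa and Ctsl hold CACGTG without the longer forms.

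Among the 8 cysteine proteases, cathepsin K fell most, cathepsin B fell, cathepsin F rose and 5 did not pass. Ctsk, a collagen- and elastin-degrading protease best known from osteoclasts, read 37138, 45622 and 41929 in undifferentiated samples 1, 2 and 4 and 15008, 8806 and 8905 in differentiated samples 1, 2 and 4. The states do not overlap, and differentiated sample 1 is the highest of its state. The change was -1.96 ± 0.23 (log2, SE; adjusted p = 0.00118), a 3.9-fold fall on the fitted scale, and only 1 probe set measures the gene. Ctsb, an abundant cathepsin with endo- and exopeptidase activity, read 63182, 66018 and 60588 and, in the same order, 48118, 35512 and 34746, with no overlap. That is -0.70 ± 0.16 (log2, SE; adjusted p = 0.0185). All 4 Ctsb probe sets of MOE430A fell, the 2 dimmer ones by more: -1.10 ± 0.15 on the one that read 2956, 3845 and 3359 undifferentiated and 1744, 1496 and 1369 differentiated, and -1.38 ± 0.18 on the one that read 5045, 4478 and 5822 undifferentiated and 2366, 1581 and 1849 differentiated. The call of the brightest one ended without undifferentiated sample 1, 2 or 4, without differentiated sample 2 or 4 and with scaling on the poly-A controls. With those samples left out 1 at a time its change stayed between -0.61 and -0.73. The Ctsb probe set on MOE430B did not pass (0.19 ± 0.37; adjusted p = 0.858).

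Ctsf, a cysteine cathepsin with an unusually long propeptide, read 1003, 1348 and 1180.2 in the undifferentiated and 2229, 2109 and 2358 in the differentiated samples. The states do not overlap, and the change was 0.89 ± 0.14 (log2, SE; adjusted p = 0.00486). It pointed down, without passing, with scaling on the hybridisation controls (-0.24), and the call ended when differentiated samples 1 and 4 were both left out. Ctsc, the dipeptidyl peptidase that activates granule serine proteases of immune cells, read 1303, 1447 and 2286 undifferentiated and 847, 990.0 and 1071 differentiated. Its values did not overlap between states, but undifferentiated sample 4 stood well above the other undifferentiated ones. The adjusted p just missed the threshold (-0.71 ± 0.22, log2 and SE; adjusted p = 0.0502). It passed as a fall under 9 of the 20 alternatives, at values down to an adjusted p = 3.53e-05 with scaling on the hybridisation controls.

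The other 4 cysteine proteases stayed within 0.38 on the log2 scale. Ctsh, an aminopeptidase, changed by 0.37 ± 0.17 (-0.76, without passing, with scaling on the hybridisation controls), legumain (Lgmn), an asparagine-specific protease, by 0.21 ± 0.14, and cathepsin Z (Ctsz), a carboxypeptidase, by -0.32 ± 0.13 on the brightest of its 3 probe sets. Cathepsin L (Ctsl), an endopeptidase of broad reach, read 41254, 41704 and 42436 undifferentiated and 38389, 32846 and 39337 differentiated, a change of -0.19 ± 0.13 (log2, SE; adjusted p = 0.301). Its states do not overlap, though the gap is small beside the signals. Quantile normalization called it a fall (-0.56, adjusted p = 0.0112), as it did for Ctsd (-0.52, adjusted p = 0.0349) and Psap (-0.60, adjusted p = 0.0109), all 3 of them bright probe sets. The fall of the brightest Ctsb probe set was larger there too, at -1.30 against -0.70.

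None of the 3 aspartic and serine proteases passed. Ctsd, the main aspartic protease of the lysosome, read 31669, 37787 and 35494 undifferentiated and 26077, 32109 and 32111 differentiated. Differentiated samples 2 and 4 lie within the undifferentiated range, and the change was -0.22 ± 0.14 (log2, SE; adjusted p = 0.287). Ctsa, a carboxypeptidase that also shields beta-galactosidase and neuraminidase in a complex, changed by -0.04 ± 0.17 (adjusted p = 0.885). Its MOE430B probe set read 4147, 3501 and 4098 undifferentiated and 6642, 4635 and 6526 differentiated, higher without overlap and without passing (0.58 ± 0.26; adjusted p = 0.354). Of the enzymes in that complex Glb1 fell and Neu1 did not pass, and the difference between them was not tested. Tpp1, a tripeptidyl peptidase lost in a childhood neuronal storage disease, changed by -0.15 ± 0.12 on its brighter probe set.

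Of 9 glycosidases 3 fell, 2 rose and 4 did not pass. Gla, the alpha-galactosidase that trims globotriaosylceramide and is lost in Fabry disease, read 3029, 2878 and 3569 in the undifferentiated and 987, 931 and 777 in the differentiated samples. The states are far apart and all 6 values lie above the background of their array. The change was -1.73 ± 0.15 (log2, SE; adjusted p = 0.0003), a 3.32-fold fall on the fitted scale. The other MOE430A probe set of Gla read under 50 on every array and was not tested, and the one on MOE430B, below the background throughout, did not pass. Glb1, the beta-galactosidase of gangliosides and keratan sulfate, read 4131, 4898 and 4728 undifferentiated and 2872, 2782 and 2635 differentiated, without overlap (-0.71 ± 0.12, log2 and SE; adjusted p = 0.0067). That call ended with scaling on the poly-A controls and without differentiated samples 1 and 4. Gusb, the beta-glucuronidase of glycosaminoglycan breakdown, read 2610.3, 2793 and 2759 undifferentiated and 1694, 2231 and 1497 differentiated. Differentiated sample 2 came nearest to the undifferentiated values. The change was -0.59 ± 0.17 (log2, SE; adjusted p = 0.0367), and a second probe set fell by nearly as much (-0.61 ± 0.16; adjusted p = 0.0293). Without any one of the 3 undifferentiated samples, or without differentiated sample 1 or 4, the call on the brighter probe set was lost, and without both of the latter the Gusb value was -0.28. The Gusb call also ended with scaling on the poly-A controls (adjusted p = 0.195), with no filter (adjusted p = 0.0642) and with the sample number as a block (adjusted p = 0.0582).

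The rises in this group were those of Idua and Gaa. Idua, the iduronidase of heparan and dermatan sulfate breakdown, is shown by the probe set that read 939, 831 and 960.2 undifferentiated and 1922, 2781 and 2080.2 differentiated. Differentiated sample 2 is the highest and the states do not overlap. The rise was 1.23 ± 0.17 (log2, SE; adjusted p = 0.00237). A second Idua probe set, with 1159, 1096 and 1115 undifferentiated and 1206, 1331 and 1429.9 differentiated, pointed up without passing (0.22 ± 0.12; adjusted p = 0.215). Gaa, the acid alpha-glucosidase that degrades lysosomal glycogen, read 5328, 7135 and 4349 undifferentiated and 12356, 9437 and 13204 differentiated. Undifferentiated sample 2 is the highest of its state and still below every differentiated value. The rise was 1.06 ± 0.22 (log2, SE; adjusted p = 0.0124), and its second probe set rose too (0.83 ± 0.18; adjusted p = 0.0136). Scaling on the hybridisation controls turned the Gaa value to -0.11, and the call ended when differentiated samples 1 and 4 were both left out. Hexa, the alpha subunit of beta-hexosaminidase, stayed at 0.02 ± 0.14, Neu1, the lysosomal sialidase, at 0.03 ± 0.20 and Man2b1, an alpha-mannosidase, at -0.11 ± 0.18. Manba, the beta-mannosidase, read 1005, 1216 and 1129 undifferentiated and 884, 843 and 818 differentiated, without overlap and without passing (-0.36 ± 0.12; adjusted p = 0.067).

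Of 4 sulfatases 1 rose. Arsa, the arylsulfatase of sulfatide breakdown, read 4867, 4264 and 4431 undifferentiated and 5992, 5999 and 6696 differentiated. All differentiated values stand above the undifferentiated ones by a modest margin, and the rise was 0.46 ± 0.12 (log2, SE; adjusted p = 0.032). Its direction turned with scaling on the hybridisation controls (-0.71), and its call ended without undifferentiated sample 1, 2 or 4, without differentiated sample 2 or 4 and without differentiated samples 1 and 4. The Arsa call also ended with scaling on the poly-A controls (adjusted p = 0.262), with no filter (adjusted p = 0.0568) and with the sample number as a block (adjusted p = 0.0729). Sgsh, the N-sulfatase of heparan sulfate, gave different calls on its 2 probe sets. The brighter did not pass, at 0.49 ± 0.19 (log2, SE; adjusted p = 0.098), and read -0.61 with scaling on the hybridisation controls. The dimmer, with 671, 579.9 and 686 undifferentiated and 1389, 906 and 929.7 differentiated, rose by 0.65 ± 0.18 (log2, SE; adjusted p = 0.0376). Ids, the iduronate sulfatase, read 643, 658 and 577 undifferentiated and 1213, 1029 and 667 differentiated on its brightest MOE430A probe set, where differentiated sample 4 lay just above the undifferentiated range (0.54 ± 0.21; adjusted p = 0.0988). Several of these values lie close to the background, and that of differentiated sample 4 lies below it. Without that sample the Ids probe set passed as a rise of 0.77 (adjusted p = 0.0165), and with scaling on the hybridisation controls it read -0.53. An Ids probe set on MOE430B read 9965, 10233 and 7957 undifferentiated and 7433, 10790.5 and 12126 differentiated, with overlapping states (0.09 ± 0.28). Arsb, the arylsulfatase of dermatan and chondroitin sulfate, was lower on all 3 of its MOE430B probe sets without passing on any. Its brightest read 15761, 20097 and 16784 undifferentiated and 11837, 10436 and 9459.6 differentiated, with no overlap (-0.72 ± 0.24; adjusted p = 0.228). That fall passed with a trend and robust prior (adjusted p = 0.0242) and when probe sets near the background were left out (adjusted p = 0.0314).

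Genes for the breakdown of sphingolipids and neutral lipids included 2 rises and 0 falls out of 6. Gm2a encodes the activator that lifts GM2 ganglioside out of the membrane for beta-hexosaminidase. It read 1461, 1791 and 1489 undifferentiated and 4466, 3382 and 4103 differentiated, and all differentiated values lie above all undifferentiated ones. The rise was 1.29 ± 0.16 (log2, SE; adjusted p = 0.0014), or 2.45-fold on the fitted scale, and its other MOE430A probe set (0.70 ± 0.32) and its MOE430B one (0.84 ± 0.38) pointed up without passing. Hexa, which acts with Gm2a on the same lipid, stayed near 0 as given above. Smpd1, the acid sphingomyelinase, read 3773, 3468 and 3821 undifferentiated and 4838, 5383 and 5045 differentiated. The values are tight in both states, and the rise was 0.46 ± 0.12 (log2, SE; adjusted p = 0.0281). It turned to -0.71 with scaling on the hybridisation controls and lost its call without undifferentiated sample 1, 2 or 4 or differentiated sample 2 or 4, and without differentiated samples 1 and 4. The Smpd1 call also ended with scaling on the poly-A controls (adjusted p = 0.267), with no filter (adjusted p = 0.0509) and with the sample number as a block (adjusted p = 0.0723). Its MOE430B probe set read 4278, 3409 and 5055 undifferentiated and 5266, 3719.6 and 4272 differentiated, with overlapping states (0.06 ± 0.27; adjusted p = 0.939).

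Lipa, the acid lipase that frees cholesterol and fatty acids from esters, gave a mixed picture over 3 probe sets. The brightest read 2614, 2481 and 3104 undifferentiated and 4573, 3096 and 3107 differentiated, with differentiated samples 2 and 4 at the top of the undifferentiated range, and did not pass (0.37 ± 0.19; adjusted p = 0.187). The next, at 1829.6, 1627 and 1836 undifferentiated and 2833, 2818 and 2762 differentiated, rose by 0.65 ± 0.12 (log2, SE; adjusted p = 0.00751). The dimmest rose as well, by 1.20 ± 0.32 (log2, SE; adjusted p = 0.0305). Taken as the mean of its probe sets, Lipa passed as a rise of 0.74 (adjusted p = 0.00497). With scaling on the hybridisation controls its brightest probe set read -0.79 without passing. Asah1, the acid ceramidase, stayed at 0.01 ± 0.14, and Ppt1, a thioesterase that removes palmitate from proteins, at -0.17 ± 0.11. Psap, the precursor of the saposins that help several of these enzymes, read 40670.3, 37809 and 40696 undifferentiated and 35965, 32094 and 32446 differentiated (-0.25 ± 0.12; adjusted p = 0.161). The same Psap probe set is printed on both chips. On MOE430B it read 149479, 156345 and 174559 undifferentiated and 122216, 102366 and 122996 differentiated, with a change of -0.47 ± 0.23 that did not pass, so levels cannot be set side by side across chips.

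Membrane proteins of the lysosome did not pass on their brightest probe sets. Lamp1, a glycoprotein that lines the lysosomal membrane and serves as its common marker, read 28945, 31815 and 29389 undifferentiated and 32211, 27276 and 30822 differentiated. The ranges overlap and the change was 0.00 ± 0.13 (log2, SE; adjusted p = 0.999). With scaling on the hybridisation controls Lamp1 fell, at -1.19 (adjusted p = 0.00625). The median of all MOE430A probe sets was -1.06 there, and Lamp1 stood at -0.12 relative to it. Lamp2, the second such glycoprotein, is known to be spliced at its end into forms with different roles in autophagy, and its 4 probe sets disagreed. The brightest read 18295, 18454 and 18825 undifferentiated and 21793, 24575 and 15101 differentiated (0.12 ± 0.19). One rose, from 7143, 7103 and 8213 to 10338, 10765 and 10383 (0.49 ± 0.12; adjusted p = 0.0246), and another pointed down, from 6268, 6349 and 9885 to 3324, 6132 and 4614 (-0.68 ± 0.27; adjusted p = 0.102). The sources used here do not say which forms they detect. Mcoln1, a calcium channel of the lysosome, changed by -0.18 ± 0.15 on its brightest probe set. Its other MOE430A probe set was lower without overlap (-0.44 ± 0.18; adjusted p = 0.103), as was that on MOE430B (-1.27 ± 0.49; adjusted p = 0.297), whose differentiated values all lay below the background. None of the 3 passed. Tfeb changed by -0.18 ± 0.43. Tfeb read 865, 457 and 588 undifferentiated and 654, 929.6 and 238 differentiated, and some of these values lie below the background.

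**Figure D3:**
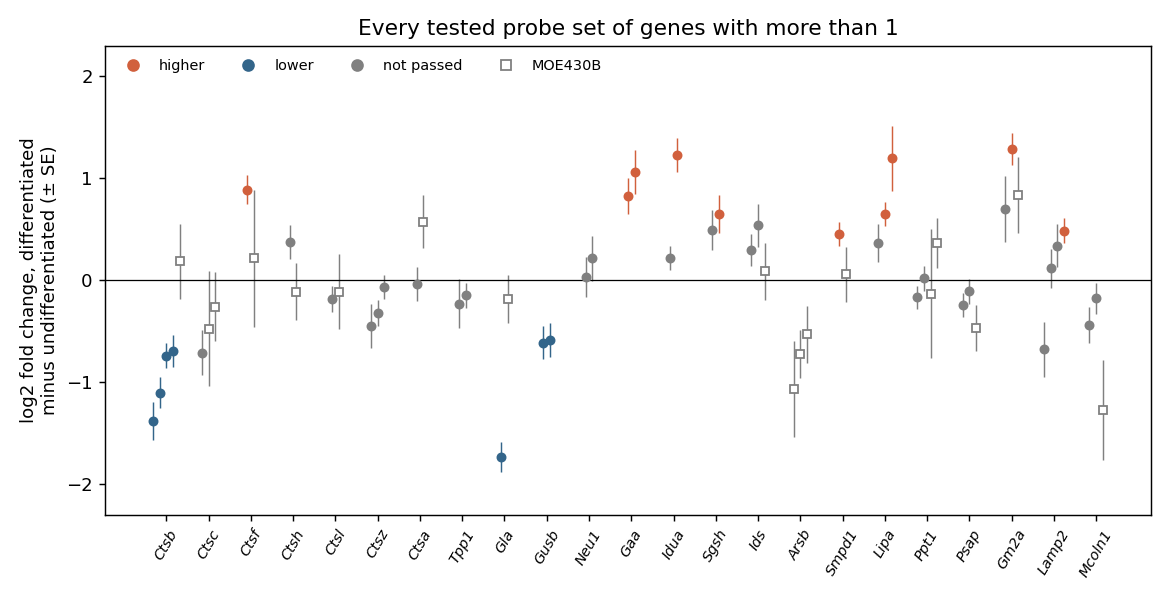
Log2 fold change (vertical axis, ± SE) of every tested probe set of the genes that have more than 1, filled circles for MOE430A and open squares for MOE430B. The 4 filled Ctsb points all lie below 0, those of Lamp2 lie on both sides, and no open square is coloured as a call.

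Probe sets of 1 gene mostly pointed the same way. Of 15 genes with more than 1 tested MOE430A probe set, 13 had all of them on 1 side of 0, and Lamp2 and Ppt1 did not. In 0 genes was 1 probe set called higher and another lower. Counting probe sets, 11 of 54 tested on MOE430A rose and 9 fell, where 14.1% and 14.4% of all probe sets of the chip did. On MOE430B 0 of 18 passed limma's test, where 1.83% of all did (0.714% as rises, 1.12% as falls), and 2 of the 18 had an unadjusted p under 0.05, as did 2687 of all 17915 probe sets of the chip. There 8 of the 18 lay below the background on all 6 arrays. For 10 of 13 genes tested on both chips the brightest probe sets pointed the same way. For Ctsc, Ctsf, Ctsl, Gla and Ppt1, however, the MOE430B one lay below the background on all 6 arrays, so its direction says little. Among genes whose MOE430B one lay above the background on all 6, Ids, Smpd1 and Psap pointed the same way on both chips. Ctsh (0.37 on MOE430A, -0.11 on MOE430B) and Ctsa (-0.04 and 0.58) did not. Nor did Ctsb (-0.70 and 0.19), whose MOE430B probe set lay below the background on 2 arrays of each state. Sgsh, Lipa and Lamp2 passed on a probe set other than the brightest alone, as rises.

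Other genes of the lysosome were read from lists of named genes. Subunits of the V-ATPase, the proton pump that acidifies lysosomes, included 6 falls and 0 rises among 15 measured, with a median of -0.40 (log2). Atp6v1c1, of the pump's cytosolic part, fell by 0.92 on the log2 scale (4728 to 2481 on average; adjusted p = 0.00372). Atp6v0a1, of its membrane part, changed by -1.21 ± 0.20 (log2, SE; adjusted p = 0.00559) on its brightest probe set, but of 3 others 2 fell and 1 rose. Among 17 other hydrolases 5 rose and 3 fell, with a median of 0.06. Pla2g15, a lysosomal phospholipase, read 713, 858 and 980.0 undifferentiated and 2899, 3464 and 3366 differentiated with a rise of 1.85 ± 0.15 (log2, SE; adjusted p = 0.000269), above that of any of the 34 genes. Galc, the galactosylceramidase, fell by at least 1.07-fold, its differentiated values lying below the background (means 781 to 236; adjusted p = 0.00205). Hgsnat, an acetyltransferase of heparan sulfate breakdown, fell (-0.73 ± 0.12; adjusted p = 0.00465).

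Acp5, the tartrate-resistant phosphatase of osteoclasts and macrophages, was at least 1.14-fold lower (means 849 to 347; adjusted p = 0.0488), with values that overlap between states. Cathepsin S (Ctss), a protease of antigen-presenting cells, was at least 1.36-fold higher (means 257 to 874; adjusted p = 0.0349), its undifferentiated values all lying below the background. Of 16 other membrane and transport proteins 1 rose, Laptm4a (0.64 ± 0.13; adjusted p = 0.0111), and 3 fell. Among the falls were Scarb2, the receptor that brings beta-glucocerebrosidase to lysosomes (12848 to 6721 on average; adjusted p = 0.00178), and Cln3, at least 1.49-fold lower (adjusted p = 0.00525). Of 15 genes for sorting enzymes to the lysosome 0 rose and 1, Ap1g1, fell (-0.47 ± 0.13; adjusted p = 0.032). All calls in these lists were made on MOE430A, where 14.2% of all genes rose and 13.9% fell. That chip measured all 15 V-ATPase genes, 15 of the 17 hydrolases, 12 of the 16 membrane and transport genes and 12 of the 15 sorting genes. The others were read on MOE430B, where 0.692% of genes rose and 1.31% fell.

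Among the transcription factors that share the CLEAR element, Mitf fell and Tfeb and Tfe3 did not pass. The differences between them were not tested. Tfe3, read on MOE430B, averaged 14725 undifferentiated and 9035 differentiated, lower without overlap (-0.70 ± 0.25; adjusted p = 0.262). Mitf, known from pigment cells and osteoclasts, read 7542, 6867 and 7349.9 undifferentiated and 1689, 1533 and 1697 differentiated, with no overlap, and fell by 2.10 on the log2 scale (SE 0.12; adjusted p = 5.95e-05), with its other tested probe set falling too. It was the 1 fall among 17 measured genes of this family and of the lysosomal mTORC1 machinery, with 0 rises. Of 20 autophagy genes 5 rose and 1 fell. Of these lists 13 of the 17 and 18 of the 20 genes were measured on MOE430A, where all the calls lie, beside the 14.2% rises and 13.9% falls of that chip. Map1lc3a, which encodes a protein that coats autophagosomes, rose from 4032, 4205 and 3907 to 9702, 7395 and 8236 (1.04 ± 0.14; adjusted p = 0.00232), and Wipi2, which acts early in autophagosome formation, rose (0.88 ± 0.13; adjusted p = 0.00353). Vps11, of a tethering complex, fell (-0.77 ± 0.19; adjusted p = 0.0237). With scaling on the hybridisation controls Laptm4a (-0.55), Map1lc3a (-0.13) and Wipi2 (-0.27) pointed down without passing, and Pla2g15 (0.72) and Ctss (0.44) pointed up without passing.

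Of 5 inhibitors of cathepsins measured, 4 of them on MOE430A, 1 rose and 2 fell. Cystatin C (Cst3), a secreted inhibitor of cysteine cathepsins, read 10972, 15937 and 15190.3 undifferentiated and 35521, 27035 and 33037 differentiated and rose by 1.19 ± 0.19 (log2, SE; adjusted p = 0.00457). Cystatin B (Cstb), its cytosolic relative, read 24166, 25725 and 26996 undifferentiated and 13621, 15214 and 13549 differentiated and changed by -0.86 ± 0.12 (log2, SE; adjusted p = 0.00283). Cst6 fell as well (adjusted p = 0.0387), with its differentiated values and 2 of the undifferentiated ones below the background. With scaling on the hybridisation controls Cst3 did not pass and read 0.00 (adjusted p = 0.993).

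**Figure D4:**
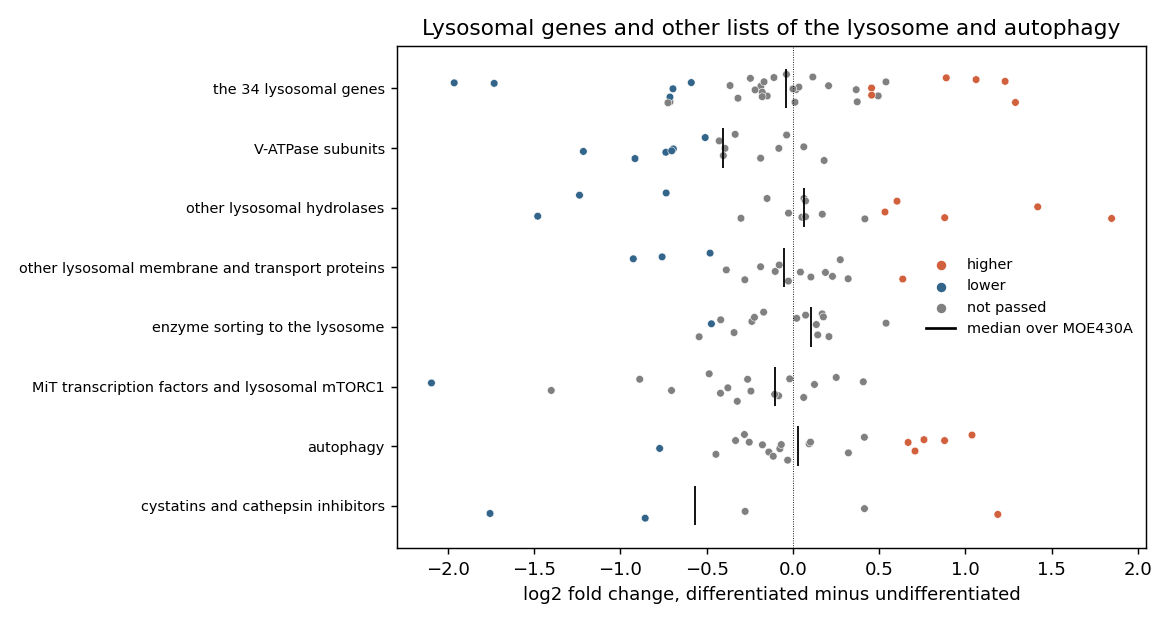
Log2 fold change (horizontal axis) of the 34 genes and of the other lists of the lysosome and autophagy, 1 point per gene with vertical jitter for legibility, coloured by call, with a line at the median over MOE430A. V-ATPase subunits have 6 blue and 0 orange points, and autophagy genes 5 orange and 1 blue.

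Markers of other cell types were read from lists too. Every call in them was made on MOE430A, where 14.2% of all genes rose and 13.9% fell. Summed signals cover only the markers of a list that MOE430A measured. Of 12 macrophage markers measured 4 rose and 0 fell, and their summed signal was 8459 to 9832 in the undifferentiated and 11649 to 17704 in the differentiated samples. Csf1r rose (0.77 ± 0.12; adjusted p = 0.00472) and Lyz2 rose (0.94 ± 0.25; adjusted p = 0.0324), and both pointed down without passing with scaling on the hybridisation controls. Cd68, a lysosomal protein of macrophages, read 954, 1017 and 1057 undifferentiated and 766, 817 and 579.5 differentiated without passing (-0.46 ± 0.15; adjusted p = 0.0619), Adgre1 was below the background on all undifferentiated arrays and on 2 differentiated ones, and Ptprc, the marker of all leukocytes, averaged 181 and 163, below the background on all 6 arrays. Of 10 fibroblast markers 6 rose and 2 fell, and their summed signal was 389213 to 398469 in the undifferentiated and 617917 to 835195 in the differentiated samples. Col1a1 rose (1.54 ± 0.15; adjusted p = 0.000581), but did not pass with scaling on the hybridisation controls (0.35). Of 6 mast cell markers 0 rose and 5 fell (6594 to 8066 in the undifferentiated and 2229.7 to 2475 in the differentiated samples), of 5 osteoclast markers 0 rose and 1, Acp5, fell (2818 to 2898 in the undifferentiated and 2728 to 2821 in the differentiated samples), and of 5 endothelial markers 1 rose and 2 fell. Of 8 luminal markers 0 rose and 1 fell, Kit, which the mast cell list also holds. The summed signal of the 6 on MOE430A was 5284 to 6277 in the undifferentiated and 3158 to 3834 in the differentiated samples. Kit alone averaged 2037 in the undifferentiated and 470 in the differentiated samples, a large part of that drop. Epcam, read on MOE430B, averaged 6051 and 7271 in the same order, with overlapping states, and did not pass. The summed signal of the 7 myoepithelial markers on MOE430A was 7543 to 7978 in the undifferentiated and 63698 to 83601 in the differentiated samples. No list had a marker at a signal of 0, but a signal above 0 does not show expression. Krt5, Krt14, Ms4a2 and Ptprc, among others, lay below the background on all 6 arrays. The part of these cell types in the changes of the lysosomal genes was not tested.

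**Figure D5:**
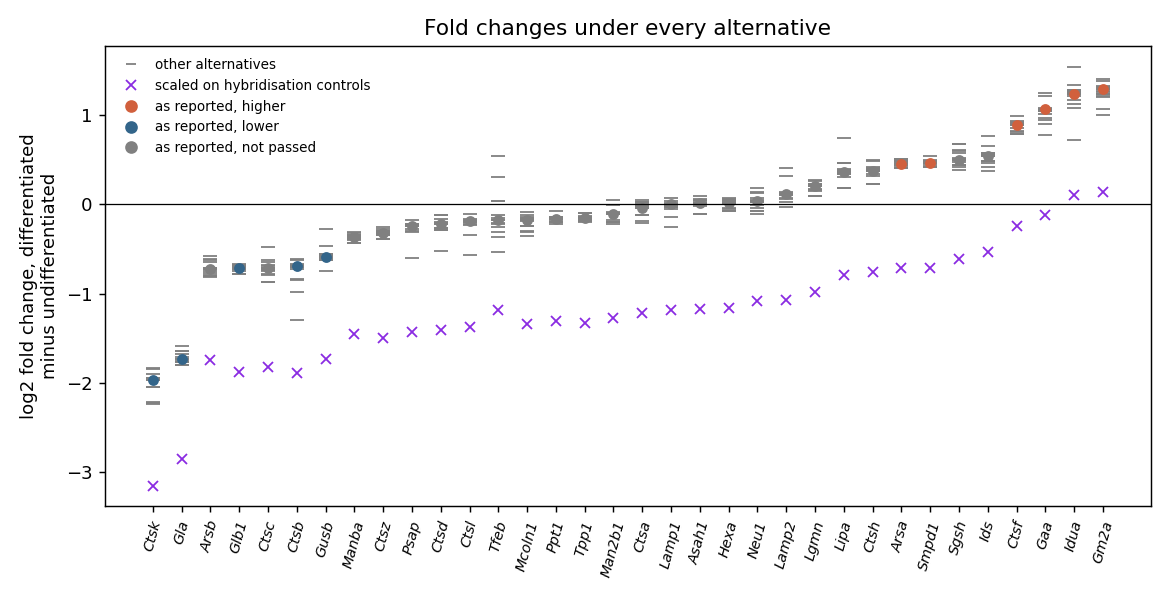
Log2 fold change of each of the 34 genes (ordered by it) as reported (circles), under scaling on the hybridisation controls (crosses) and under each of the other alternatives (dashes). The crosses lie about 1 unit lower for every gene, with Gm2a (0.14) and Idua (0.11) the 2 that stay above 0.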

How the data were processed

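RNA of 3 undifferentiated and 3 differentiated mammosphere samples was hybridised to MOE430A and MOE430B. The deposited values are MAS5 signals, a linear intensity per probe set, made by the authors with MAS5 per the submitters' processing notes. Its version and target are not given in the sources used here. The equal trimmed means (2% off each end) show that arrays had been scaled to a common target. Deposited instrument records, of a kind other than expression values, gave the station and the scan session. Stations differed between states, and undifferentiated sample 1 alone was scanned in session 2. The number of arrays limits the precision.

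Probe sets got symbols from the platform tables, updated through RefSeq (GRCm38.p6): 20364 of 20393 single-gene probe sets of MOE430A and 14499 of 14674 of MOE430B matched. Signals were scaled to the common trimmed mean, log2 was taken after adding 75, which is 5% of that mean, so fold changes of dim probe sets are understated. Probe sets averaging at least 20% of the trimmed mean over the 6 arrays were tested (15939 and 17915). limma 3.58.1 in R 4.3.3 (lmFit, eBayes; two-sided) compared the states on each chip apart, with Benjamini-Hochberg adjustment over the chip, threshold 0.05. All adjusted p-values come from this test. The fits were also run on simulated data with independent noise and 200 changed probe sets per chip. In the real data 4550 probe sets passed on MOE430A, so that run does not vouch for the calls given here. A gene is shown by its brightest tested MOE430A probe set, otherwise by that of MOE430B. If a state was below the trpn background on all its arrays, its values were raised to that background, and the ratio of geometric means is a lower bound ("at least"). Python 3.11.15 with pandas 2.3.3 and matplotlib 3.10.9 made tables and figures.

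The 34 genes, the lists and the alternatives were chosen with earlier results of these data known. Named are all 34, up to 2 rises and 2 falls per list of lysosomal or autophagy genes (largest changes among genes that passed without overlap), and 10 marker genes. Krt8, Kit, Epcam and Tfe3 were chosen after their values were seen. Alternatives were other scalings, offsets, filters and priors, blocks, left-out samples, the mean over probe sets and a fold limit of 1.5.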

Additional observations from a re-analysis of the deposited data

How the results depend on the processing

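Counts of the 33 MOE430A genes (6 higher, 5 lower), of member probe sets (11 and 9 on MOE430A, 0 and 0 on MOE430B), of other lysosome and autophagy genes (12 and 17) and of cell type genes (15 and 10) were repeated under each alternative. Scaling on the hybridisation controls gave 0 and 23, 0 and 37, 0 and 2, 0 and 74 and 4 and 24 in that order, and turned the values of Arsa (-0.71), Ctsf (-0.24), Gaa (-0.11), Smpd1 (-0.71), Asah1 (-1.17), Hexa (-1.16), Lamp1 (-1.19), Lamp2 (-1.07), Lgmn (-0.98), Neu1 (-1.09), Csf1r (-0.37), Lyz2 (-0.21), Krt14 (-0.88), Laptm4a (-0.55), Map1lc3a (-0.13) and Wipi2 (-0.27). Values that passed in neither scaling turned too, for Ctsh (-0.76), Ids (-0.53), Lipa (-0.79), Sgsh (-0.61) and Adgre1 (-0.69). Under this scaling the median of all MOE430A probe sets was -1.06, with 247 of 15939 called higher and 10649 lower. On MOE430B the median was -0.91, with 35 of 17915 called higher and 1513 lower. Asah1, Hexa, Lamp1 and Neu1 had read 0.01, 0.02, 0.00 and 0.03 under the scaling used here. Scaling on the poly-A controls gave 2 falls among the 33 genes, 6 rises and 4 falls among MOE430A probe sets and 6 and 8 among lysosome and autophagy genes. Falls among the 33 numbered 8 with quantile normalization and 8 with a trend and robust prior, which also gave 27 falls of lysosome and autophagy genes. Both the trend and robust prior and the trpn filter called 1 MOE430B probe set and gene, Arsb. With no filter, rising probe sets numbered 7 and falling cell type genes 5. The scan session holds 1 array of a chip, so as a block it equals leaving out undifferentiated sample 1: 7 rising probe sets, 11 falls of lysosome and autophagy genes and 6 of cell type genes. Without differentiated samples 1 and 4 the 33 genes gave 2 and 3, probe sets 2 rises and lysosome and autophagy genes 4 and 8. Leaving out 1 sample gave 4 to 6 rises and 3 to 4 falls of the 33, 6 to 10 and 6 to 9 MOE430A probe sets, 8 to 10 and 11 to 15 lysosome and autophagy genes and 11 to 18 and 5 to 8 cell type genes. Calls over the whole MOE430A chip dropped as well, from 4550 of 15939 probe sets to between 2760 and 3823. Same-numbered samples did not deviate together (r from -0.02 to 0.04 on MOE430A, -0.02 to 0.05 on MOE430B). With 3 samples per state this cannot tell whether same-numbered samples share a culture or animal. With the sample number as a block the 33 genes gave 4 rises and 5 falls, where Arsa, Smpd1 and Gusb did not pass and Ctsc fell, and lysosome and autophagy genes 10 and 11. A limit of 1.5-fold left 4 rises and 5 falls, and the mean over probe sets gave 8 and 6. No other count moved by more than 1.5 times. MOE430B probe sets near or below the background limit what that chip can show.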
